A study of Mus musculus with 36 samples.

Results

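The aryl hydrocarbon receptor (Ahr, protein AhR), its partner Arnt and 4 of its target genes, Cyp1a1, Cyp1b1, Ahrr and Tiparp, were followed in mouse blood progenitors over 24 h of TGF-β1. The members were the probe sets that carry 1 of these 6 symbols alone. Among several probe sets of a gene, 1 would have been chosen by its mean level over the 36 arrays, but each of the 6 genes had 1 probe set, so that step was not needed. The 6 genes themselves were picked with earlier results of these data known. They are 6 of 19938 genes measured. The study compared dendritic cell committed progenitors (common dendritic progenitors, CDP) with multipotent progenitors (MPP), from which CDP arise. Both were grown from mouse bone marrow with a cytokine cocktail and purified by FACS sorting, and both either received recombinant human TGF-β1 at 10 ng/ml over 2, 4, 8, 12 or 24 h or stayed untreated (0 h). The labels give no strain, genotype, sex or age. Each of the 12 groups held 3 arrays, 18 per cell type and 36 in all, which the study calls biological replicates. The labels do not say whether arrays with 1 replicate number came from 1 culture or animal.

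AhR is a transcription factor of the bHLH-PAS family that waits in the cytoplasm with Hsp90 chaperones until it binds a ligand, such as a dioxin or a product of tryptophan. It then enters the nucleus, pairs with Arnt and binds DNA at the core GCGTG. Cyp1a1 and Cyp1b1 encode cytochrome P450 enzymes that oxidise many AhR ligands and are the classical readouts of an active receptor. Ahrr encodes the AhR repressor, which competes with AhR for Arnt, and Tiparp encodes an ADP-ribosyltransferase that modifies AhR and dampens it, so both form negative feedback loops. AhR is known to be expressed in Langerhans cells, which reside in the epidermis and need TGF-β1 to develop.

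The 250 bases upstream of the annotated start of the 4 target genes were searched for the AhR and Arnt core and are shown. The length of this window was a choice, and sequence farther upstream was not searched. They are RefSeq sequence of the mouse build GRCm38.p6, written along the strand of the gene. The windows are chr9:57697363-57697612 on the plus strand for Cyp1a1, chr17:79715062-79715311 on the minus strand for Cyp1b1, chr13:74292332-74292581 on the minus strand for Ahrr and chr3:65528197-65528446 on the plus strand for Tiparp. Capitals mark GCGTG, or CACGC where the core lies on the other strand.
Cyp1a1: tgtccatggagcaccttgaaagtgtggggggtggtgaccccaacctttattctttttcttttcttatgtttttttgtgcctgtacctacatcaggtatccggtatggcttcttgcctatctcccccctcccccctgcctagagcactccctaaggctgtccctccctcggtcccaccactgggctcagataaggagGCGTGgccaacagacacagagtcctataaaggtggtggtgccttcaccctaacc
Cyp1b1: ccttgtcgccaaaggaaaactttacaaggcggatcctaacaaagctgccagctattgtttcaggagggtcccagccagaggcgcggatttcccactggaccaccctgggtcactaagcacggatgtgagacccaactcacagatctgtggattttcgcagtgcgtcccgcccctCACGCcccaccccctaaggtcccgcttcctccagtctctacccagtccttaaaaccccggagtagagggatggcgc
Ahrr: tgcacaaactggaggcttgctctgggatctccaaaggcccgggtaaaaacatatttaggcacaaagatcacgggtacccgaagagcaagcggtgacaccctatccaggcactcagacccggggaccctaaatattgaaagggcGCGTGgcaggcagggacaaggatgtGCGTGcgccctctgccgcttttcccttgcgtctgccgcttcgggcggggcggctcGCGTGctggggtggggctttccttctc
Tiparp: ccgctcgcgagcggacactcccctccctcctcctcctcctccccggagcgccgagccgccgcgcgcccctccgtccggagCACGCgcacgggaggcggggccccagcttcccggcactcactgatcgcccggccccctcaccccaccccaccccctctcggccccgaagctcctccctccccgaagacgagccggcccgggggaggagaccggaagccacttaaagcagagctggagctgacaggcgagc
Cyp1a1, Cyp1b1 and Tiparp held 1 match each in this window and Ahrr held 3, and the window of Arnt held 1. Both strands were searched, and the core overlaps the hypoxia element that Arnt binds with Hif1a, since GCGTG is also 1 form of that element. Of 32851 upstream windows of this length, 28.2% held at least 1 match, 8.63% at least 2 and 2.77% at least 3. A match is a description of the letters and not a site in use.

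Values are the deposited log2 intensities, where a difference of 1 is a doubling. A gene was called changed at a limma adjusted p under 0.01 and an absolute log2 difference of 1 or more, with p-values adjusted over all 19938 genes. The lowest correlation between 2 arrays of a group was 0.989, in CDP at 2 h. The labels' cell types were set against their markers before treatment: the cytokine receptor gene Flt3 lay at 12.28 to 12.42 in CDP and 9.69 to 10.75 in MPP, the stem cell factor receptor gene Kit at 8.40 to 8.86 in CDP and 11.20 to 11.40 in MPP, and Gata2 at 7.93 to 7.97 in CDP and 9.59 to 9.84 in MPP. Flt3 was on both the MPP and the CDP marker list. Cd34, Myb and Meis1 of the MPP list were also higher in MPP, without overlap. The gap was narrow for Meis1 (highest 9.74 in CDP, lowest 9.75 in MPP). Irf8, Id2, Spi1 and Zbtb46 of the CDP list were higher in CDP, without overlap. The gap was narrowest for Spi1 (lowest 13.26 in CDP, highest 13.22 in MPP). The share of all genes without overlap was not counted. Cd48, an MPP marker, went the other way, at 11.50 to 11.64 in CDP and 11.04 to 11.20 in MPP. Hoxa9 of the MPP list and Csf1r, Csf2ra, Il3ra and Cd33 of the CDP list overlapped between the cell types. Some arrays stood apart in 17 measured interferon-stimulated genes, whose mean ranged between 7.90 and 12.44 over the CDP arrays and between 7.77 and 9.04 over the MPP arrays. The highest mean in MPP was that of untreated replicate 3 (9.04), and high means in CDP were those of untreated replicate 3 (10.50), 2 h replicate 3 (12.44), 4 h replicates 1 (10.45) and 3 (9.98), and 24 h replicate 3 (10.03). CDP 8 h replicate 3 (9.54), 24 h replicate 1 (9.43) and 12 h replicate 3 (9.17) followed. Replicate 3 was thus the highest CDP array at every time except 4 h, where replicate 1 was. The Ahr differences from 0 h are given with and without some of these arrays, and most other results only with them. A bulk level cannot tell fewer cells of a type apart from less RNA per cell, and no untreated arrays of later times were analysed here, so TGF-β1 and time in culture cannot be told apart.

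The receptor gene itself moved most among the 6 members. In CDP the level of Ahr was 10.38, 10.57 and 10.53 at 0 h, 8.68, 8.99 and 8.47 at 2 h, and 8.64, 9.47 and 8.95 at 4 h. It was 9.42, 9.63 and 9.81 at 8 h, 10.04, 10.47 and 10.12 at 12 h, and 11.33, 11.57 and 11.65 at 24 h. All arrays at 2, 4 and 8 h lay below all untreated arrays, the 12 h arrays overlapped them, and all 24 h arrays lay above them.

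In MPP the level of Ahr was 9.36, 9.82 and 8.58 at 0 h, 8.08, 8.19 and 8.17 at 2 h, and 8.18, 8.22 and 8.24 at 4 h. It was 8.20, 8.33 and 8.18 at 8 h, 8.56, 8.36 and 8.34 at 12 h, and 9.14, 9.14 and 9.17 at 24 h. The treated arrays lay close together at every time, whereas the untreated arrays had an SD of 0.63. Arrays at 2 to 12 h lay below all untreated arrays, narrowly so at 12 h (highest 8.56, against a lowest untreated 8.58), and the 24 h arrays lay within the untreated range.

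**Figure D1:**
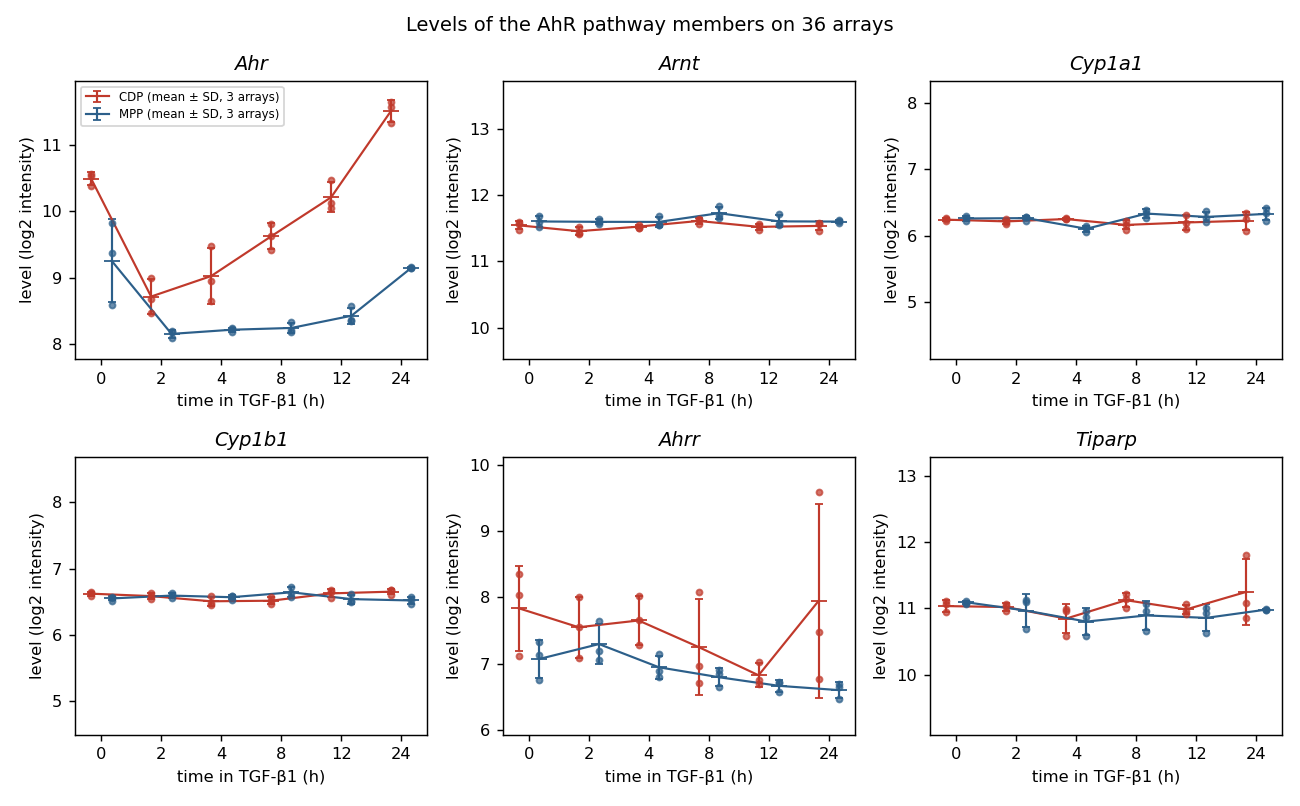
Level of the 6 members (log2 intensity) against time in TGF-β1 (h, evenly spaced), CDP in red and MPP in blue. Points are arrays and lines join means ± SD of 3 arrays, and every panel spans the same number of log2 units. Ahr dips and returns, to 11.52 in CDP at 24 h, while Arnt, Cyp1a1 and Cyp1b1 stay within narrow bands and Ahrr has 1 high array in CDP at 24 h.

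Relative to 0 h, Ahr in CDP fell by 1.78 ± 0.13 at 2 h (SE, 3.44-fold lower, limma adjusted p = 1.7e-06) and by 1.47 ± 0.13 at 4 h (2.77-fold lower, adjusted p = 5.2e-06). It was the only member called lower at these times, when 0.0602% and 0.271% of all genes were called lower. At 8 h the difference was −0.87 ± 0.13 (adjusted p = 3.3e-04), which misses the fold threshold, and at 12 h −0.28 ± 0.13 (adjusted p = 0.19). At 24 h Ahr rose by 1.02 ± 0.13 (2.03-fold higher, adjusted p = 3.3e-05), where 1.35% of all genes were called higher. None of the 6 members was called at 8 or 12 h, against 1.27% and 1.86% of all genes. All comparisons with 0 h share the untreated arrays of their cell type.

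The 24 h call in CDP lies near the fold threshold. It was 0.94 without 24 h replicate 3, 0.96 without untreated replicate 2 and 0.97 without replicate 3 at all times, and the adjusted p stayed under 0.01 in each case. Without untreated replicate 3, 2 h replicate 3 and 4 h replicate 1 together, which had the highest interferon-stimulated genes in CDP, the differences were −1.64 at 2 h, −1.35 at 4 h and 1.03 at 24 h, and all were called. The 24 h replicate 3, next in order, was kept there, and leaving it out alone gave the 0.94 above. Without 4 h replicate 3 the 4 h difference was −1.43 and was called.

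In MPP Ahr fell by 1.11 ± 0.18 at 2 h (2.15-fold lower, limma adjusted p = 8.4e-04), by 1.04 ± 0.18 at 4 h (2.06-fold lower, adjusted p = 0.0010) and by 1.02 ± 0.18 at 8 h (2.02-fold lower, adjusted p = 8.3e-04). Again Ahr was the only member called lower, when 0.0451%, 0.135% and 0.196% of all genes were called lower. The difference was −0.83 ± 0.18 at 12 h (adjusted p = 0.0041), which misses the fold threshold, and −0.11 ± 0.18 at 24 h (adjusted p = 0.78). No member was called at 12 or 24 h, where 0.737% and 1.2% of all genes were.

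The size of the fall in MPP depended on the untreated arrays. Without untreated replicate 2, which had the highest Ahr level, the differences were −0.83, −0.77 and −0.74 at 2, 4 and 8 h and none was called. Without untreated replicate 1 they were −1.05, −0.99 and −0.96, with a call at 2 h alone. Without untreated replicate 3, which had the lowest Ahr level and the highest interferon-stimulated genes in MPP, they were −1.44, −1.37 and −1.35, all called, and the 12 h difference of −1.16 was called too. Without replicate 1 at all times they were −1.02, −0.97 and −0.94 (adjusted p = 0.089, 0.086 and 0.063), and without replicate 2 at all times −0.85, −0.76 and −0.78 (adjusted p = 0.030, 0.037 and 0.022), and none was called. The part of the interferon-stimulated genes in the level of Ahr was not tested.

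Over all 5 times together, the moderated F-test of limma called Ahr alone of the 6 members in CDP (adjusted p = 1.1e-08) and in MPP (adjusted p = 2.9e-04), against 3.43% and 1.33% of all genes. Ahrr had an adjusted p of 0.0088 in MPP, but its largest difference from 0 h there was 0.47 in size.

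**Figure D2:**
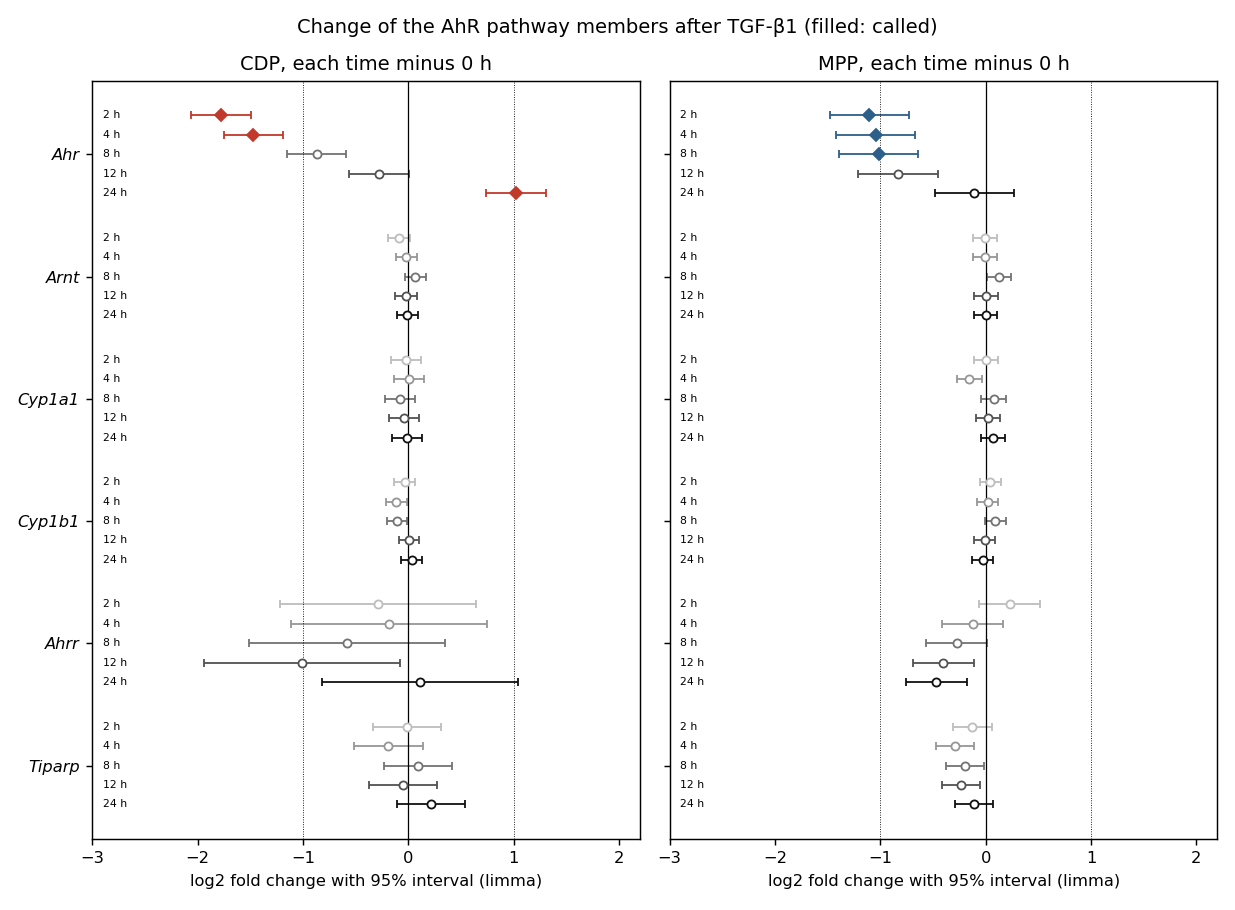
Log2 fold change of each member against 0 h with its 95% interval (limma), CDP on the left and MPP on the right, with 2 to 24 h running down within each gene. Filled diamonds are called, and dotted lines mark a fold change of 1 in size. The called points are Ahr at 2, 4 and 24 h in CDP and at 2, 4 and 8 h in MPP.

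The steps between neighbouring times show when Ahr came back. Their sizes do not use the untreated arrays, but their SE and adjusted p do. In CDP the steps were 0.31 ± 0.13 between 2 and 4 h (limma adjusted p = 0.35), 0.60 ± 0.13 between 4 and 8 h (adjusted p = 0.031), 0.59 ± 0.13 between 8 and 12 h (adjusted p = 0.14) and 1.31 ± 0.13 between 12 and 24 h (adjusted p = 3.0e-05). The last step was called, as the only step of any member, where 0.15% of all genes were called higher. The earlier CDP steps called no member, against 0.0552%, 0.1% and 0.015% of all genes. In MPP the steps were 0.06, 0.03 and 0.18 up to 12 h and 0.73 ± 0.18 between 12 and 24 h (adjusted p = 0.040). The adjusted p of this last step was 0.051, 0.0063 or 2.2e-04 without untreated replicate 1, 2 or 3, at the same size. None of the MPP steps was called, and neither was any step of another member, against 0.00502%, 0.015%, 0% and 0.0702% of all genes at the 4 steps.

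CDP held more Ahr RNA than MPP at each time. The CDP arrays lay above the MPP arrays at all 6 times with no overlap, by 1.24 ± 0.20 at 0 h (limma adjusted p = 2.0e-05), 0.56 ± 0.20 at 2 h (adjusted p = 0.038) and 0.81 ± 0.20 at 4 h (adjusted p = 0.0026). The difference was 1.38 ± 0.20 at 8 h (adjusted p = 3.0e-06), 1.79 ± 0.20 at 12 h (adjusted p = 3.7e-08) and 2.37 ± 0.20 at 24 h (5.17-fold higher, adjusted p = 1.1e-10). It was called at 0, 8, 12 and 24 h, for Ahr alone of the 6 members, where 1.26%, 1.44%, 1.54% and 2.07% of all genes were called higher. No member was called at 2 and 4 h, against 3.1% and 3.12% of all genes. Without untreated MPP replicate 3 the difference at 0 h was 0.90 and was not called, and without CDP 4 h replicate 1 that at 4 h was 1.00 and was called.

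The 2 cell types also differ in markers of other blood cells. The 12 neutrophil markers averaged 7.75 to 8.91 over the CDP arrays and 11.35 to 12.26 over the MPP arrays, and 10 of them were called lower in CDP at 0 h and 11 at 24 h, where 1.55% and 2.98% of all genes were. The 10 mast cell and basophil markers averaged 6.61 to 6.88 over the CDP arrays and 8.19 to 8.66 over the MPP arrays, with 5 called lower in CDP at 0 h and 5 at 24 h. The 9 measured lymphoid markers averaged 6.29 to 6.51 over the CDP arrays and 6.82 to 6.90 over the MPP arrays. Both ranges are dim, and without a detection call it cannot be said whether these genes were expressed. The means of the erythroid and megakaryocyte markers overlapped, at 7.62 to 8.33 in CDP and 8.06 to 8.46 in MPP. The part of these lists in the Ahr difference was not tested.

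The change of Ahr since 0 h differed between CDP and MPP at 24 h. The CDP change minus the MPP change was −0.67 ± 0.24 at 2 h (limma adjusted p = 0.33), −0.43 ± 0.24 at 4 h (adjusted p = 0.63), 0.15 ± 0.24 at 8 h (adjusted p = 0.84) and 0.55 ± 0.24 at 12 h (adjusted p = 0.26). At 24 h it was 1.13 ± 0.24 (2.19-fold, 95% interval 0.64 to 1.62, adjusted p = 0.0012), which was called, with 0.722% of all genes called in that direction. No member was called at 2, 4, 8 or 12 h, against 0.0301%, 0.14%, 0.411% and 0.727% of all genes. These earlier values rested on the untreated MPP arrays. Without untreated MPP replicate 3 they were −0.34, −0.10, 0.48 and 0.88 at 2, 4, 8 and 12 h, with an adjusted p of 0.0033 at 12 h, and without untreated MPP replicate 2 they were −0.95, −0.70, −0.13 and 0.27, and none was called. Without untreated MPP replicate 2 the 24 h value was 0.86, with an adjusted p of 0.0054, and was not called. Without replicate 1 or replicate 2 in both cell types it was 1.11 or 0.85, with an adjusted p of 0.079 or 0.037.

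**Figure D3:**
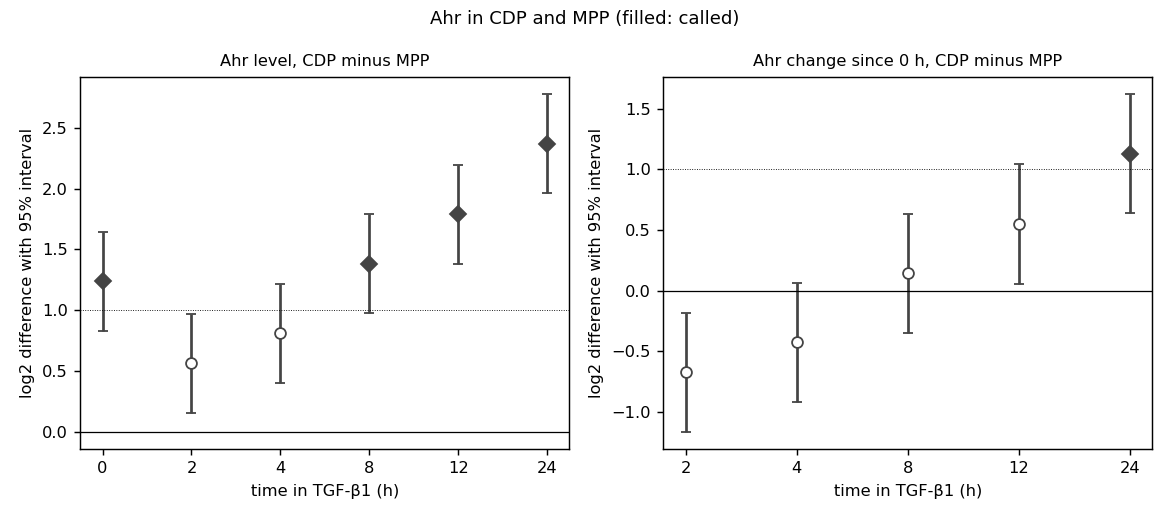
Ahr level in CDP minus that in MPP at each time (left) and the change of Ahr since 0 h in CDP minus that in MPP (right), in log2 units with 95% intervals (limma), against time in TGF-β1 (h). Filled diamonds are called and dotted lines mark a difference of 1. The level difference runs between 0.56 at 2 h and 2.37 at 24 h, and the change differs by 1.13 at 24 h.

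Ordered by mean level, Ahr ran through MPP at 2 h (8.15), 4 h (8.21), 8 h (8.24) and 12 h (8.42), CDP at 2 h (8.71) and 4 h (9.02), MPP at 24 h (9.15) and 0 h (9.26), and CDP at 8 h (9.62), 12 h (10.21), 0 h (10.49) and 24 h (11.52). Neighbours in this order overlapped in their arrays, except MPP at 8 and 12 h, CDP at 8 and 12 h, and CDP at 0 and 24 h. The lowest Ahr level was thus in treated MPP and the highest in CDP at the end of the course.

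Of 2097 other genes whose group means span 1 or more on the log2 scale, 3 had group means most like those of Ahr over the 12 groups. They were Rp2 (Pearson r = 0.94), Trim12a (r = 0.94) and Zfp52 (r = 0.94), which is a description over group means that share arrays and culture. The group means of Ahr spanned 3.37, against 1.23 for Rp2, 1.35 for Trim12a and 1.11 for Zfp52.

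**Figure D4:**
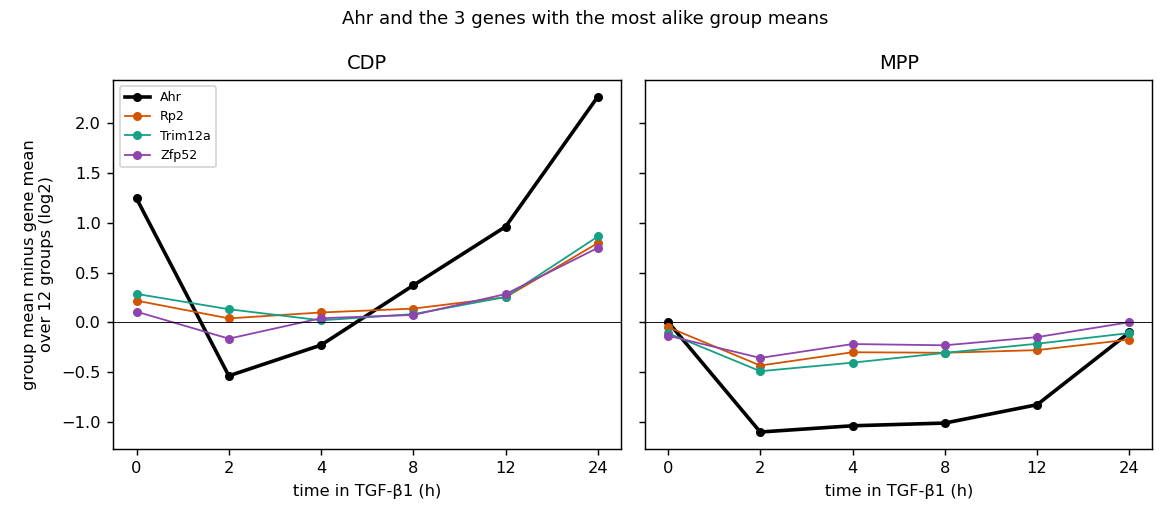
Group means of Ahr (black) and of the 3 genes most like it, each minus its own mean over the 12 groups (log2), against time in TGF-β1 (h), CDP on the left and MPP on the right. The 4 genes share a low at 2 to 4 h and a high in CDP at 24 h, and Ahr has the widest span (3.37).

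Arnt, the partner of AhR and of the hypoxia factor Hif1a, had nearly 1 level throughout, between 11.41 and 11.84 over all 36 arrays. Its largest difference from 0 h was 0.09 in size in CDP and 0.13 in MPP, and the lowest adjusted p of these was 0.14. The 95% intervals ran between −0.19 and 0.17 in CDP and between −0.12 and 0.24 in MPP, so changes beyond these sizes lie outside them.

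Cyp1a1 lay between 6.05 and 6.42 and Cyp1b1 between 6.46 and 6.72 over the 36 arrays. Neither was called at any time. At 24 h in CDP, Cyp1a1 was 6.35, 6.25 and 6.08, against 6.26, 6.24 and 6.22 at 0 h. Cyp1b1 was 6.68, 6.68 and 6.60 at 24 h in CDP, against 6.64, 6.59 and 6.64 at 0 h. The largest difference of Cyp1a1 from 0 h was 0.08 in size in CDP and 0.16 in MPP, and that of Cyp1b1 was 0.12 in CDP and 0.09 in MPP. The 95% intervals against 0 h stayed between −0.22 and 0.15 in CDP and −0.27 and 0.19 in MPP for Cyp1a1, and between −0.21 and 0.13 in CDP and −0.13 and 0.19 in MPP for Cyp1b1. The table has no detection call, and both genes are dim, so whether they were expressed at all cannot be said, and a change of a gene this dim is compressed on this scale.

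Ahrr, the repressor gene, varied widely between arrays of 1 group, above all in CDP. In CDP its level was 7.12, 8.04 and 8.36 at 0 h, 7.08, 8.01 and 7.56 at 2 h, and 7.28, 8.02 and 7.66 at 4 h. It was 6.71, 6.97 and 8.07 at 8 h, 6.70, 6.74 and 7.03 at 12 h, and 6.77, 9.59 and 7.48 at 24 h. The 12 h arrays lay below all untreated arrays, the other times overlapped them, and 24 h replicate 2 was the highest of all 36 arrays.

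In MPP Ahrr was 6.75, 7.33 and 7.13 at 0 h, 7.64, 7.19 and 7.06 at 2 h, and 6.80, 7.14 and 6.89 at 4 h. It was 6.64, 6.90 and 6.84 at 8 h, 6.56, 6.71 and 6.72 at 12 h, and 6.46, 6.69 and 6.65 at 24 h. All arrays at 12 and 24 h lay below the untreated arrays, at a low level overall.

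No difference of Ahrr was called when all arrays were kept in these fits. It was −1.01 ± 0.43 in CDP at 12 h (limma adjusted p = 0.15) and 0.11 ± 0.43 at 24 h (adjusted p = 0.91), and −0.47 ± 0.14 in MPP at 24 h (adjusted p = 0.028). Between the cell types it was 1.35 ± 0.43 higher in CDP at 24 h (adjusted p = 0.013). Without CDP 24 h replicate 2 this was 0.53 (adjusted p = 0.23). Without CDP 24 h replicate 1 it was 1.93 (adjusted p = 5.7e-04), without CDP 24 h replicate 3 1.58 (adjusted p = 0.0097) and without replicate 1 at all times 1.86 (adjusted p = 0.0078), and it was then called. Without CDP 24 h replicate 2 the difference between 24 and 0 h in CDP was −0.64 (adjusted p = 0.11). The 12 h difference of −1.01 then reached an adjusted p of 0.0077 and was called. The group means of Ahrr over 12 groups were most like those of Cfp, Socs3 and Zfp36 (r = 0.93 each). Cfp encodes the complement factor properdin, Socs3 a cytokine signalling inhibitor and Zfp36 an mRNA decay factor. The highest Ahrr mean, in CDP at 24 h (7.95), includes the 1 high array (9.59), and r without that array was not computed.

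Tiparp lay between 10.58 and 11.80. In CDP it was 10.86, 11.80 and 11.08 at 24 h, against 11.10, 11.06 and 10.94 at 0 h, a difference of 0.21 ± 0.15 (limma adjusted p = 0.37) that was −0.04 without CDP 24 h replicate 2. In MPP it was 10.97, 10.99 and 10.98 at 24 h, against 11.07, 11.09 and 11.12 at 0 h, a difference of −0.11 that was not called. MPP replicate 3 was low at 2, 4, 8 and 12 h (10.68, 10.58, 10.65 and 10.63), and the lowest adjusted p of Tiparp in MPP was 0.046, at 4 h (−0.29). No difference of Tiparp was called.

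The 2 feedback genes were thus both highest on the same array, CDP at 24 h replicate 2. On that array Ahrr was 2.46 and Tiparp 0.84 above the mean of the other 2 arrays of the group, whereas Cyp1a1 and Cyp1b1 were 0.04 above it and Ahr 0.08. Over all genes, 34 were over 1 higher and 112 over 1 lower on it than the mean of the other 2 arrays. The 18 measured hypoxia targets, which Arnt also serves, averaged 10.31 on it, against 9.86 and 9.68 on replicates 1 and 3. Of these 18, 4 were over 1 higher than the mean of the others, as were 34 of all 19938 genes. The part of these genes in the level of Ahrr and Tiparp was not tested.

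**Figure D5:**
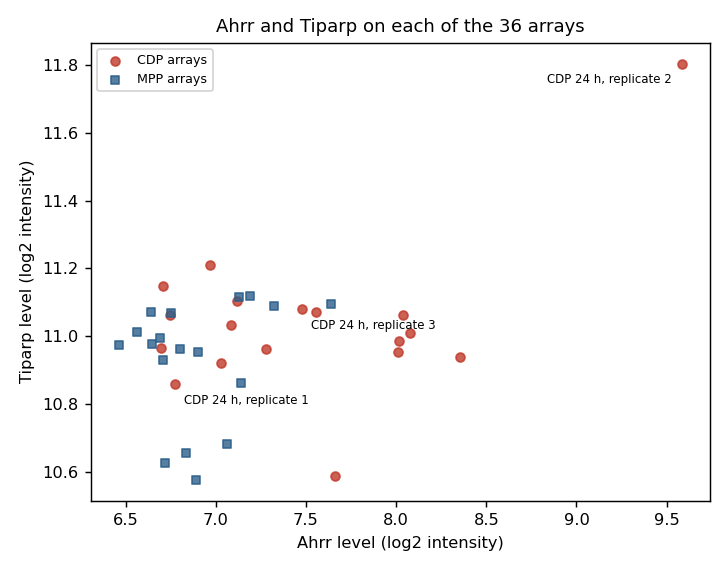
Level of Tiparp against that of Ahrr (log2 intensity) on each of the 36 arrays, CDP as red circles and MPP as blue squares, with the 3 CDP arrays at 24 h named. Replicate 2 of CDP at 24 h stands alone, at 9.59 for Ahrr and 11.80 for Tiparp.

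Genes that serve AhR or respond to it in other cells were read against the same thresholds at 24 h, when 3.14% of all genes were called in CDP and 1.2% in MPP. None of 10 measured chaperones and coactivators of AhR was called in CDP or MPP, and the list's median change was −0.01 in CDP and 0.04 in MPP, against 0.00 and −0.01 over all genes. In this list Relb, an NF-κB subunit that can pair with AhR, had a difference of 0.93 ± 0.25 in CDP (limma adjusted p = 0.010) and −0.44 ± 0.18 in MPP (adjusted p = 0.14). None of 5 measured genes of the xenobiotic enzyme battery was called in CDP or MPP. In that list Cyp2s1, a cytochrome P450 gene, had 0.95 ± 0.10 in CDP, just under the fold threshold, and −0.06 ± 0.07 in MPP.

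Of 17 measured genes described as AhR targets in other cells, 3 rose and 2 fell in CDP at 24 h, and 1 rose and none fell in MPP. Of all genes, 1.35% rose and 1.79% fell in CDP, and 0.717% rose and 0.487% fell in MPP. The list's median change was −0.06 in CDP and −0.03 in MPP. Itgae, the gene of the integrin subunit that binds E-cadherin, rose by 4.88 ± 0.16 in CDP and by 3.47 ± 0.12 in MPP, and it is in the Langerhans cell list too. Kit rose by 2.79 ± 0.26 in CDP, against −0.14 ± 0.05 in MPP, and it is also an MPP marker here. Scin, which encodes the actin-severing protein scinderin, rose by 1.62 ± 0.23 in CDP and had 0.57 ± 0.12 in MPP. Notch1, a receptor gene, fell by 1.60 ± 0.21 in CDP and had 0.30 ± 0.09 in MPP. The other gene that fell was Stc2, which is named after its value was seen.

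Genes that make, use or carry tryptophan and kynurenine, from which natural AhR ligands derive, were mostly not called. Of 15 measured, 1 fell in CDP and none was called in MPP at 24 h, where 1.79% of all genes fell in CDP and 1.2% were called in MPP. The amino acid carrier gene Slc7a8 fell by 1.75 ± 0.34 in CDP (limma adjusted p = 0.0011), against −0.19 ± 0.09 in MPP. None of 15 other bHLH-PAS genes was called in CDP or MPP at 24 h, and neither was any of 13 other PARP family genes, against 3.14% and 1.2% of all genes.

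The hypoxia targets, read by Arnt with the Hif factors, were lower in CDP in part. Of 18 measured, 5 fell and none rose in CDP at 24 h, and 1 fell in MPP. Of all genes, 1.79% fell and 1.35% rose in CDP, and 0.487% fell in MPP. The list's median change was −0.69 in CDP and −0.25 in MPP, against 0.00 and −0.01 over all genes. Ndrg1 fell by 2.33 ± 0.18 in CDP and by 1.06 ± 0.08 in MPP, and it was called in CDP at all 5 times. The vascular growth factor gene Vegfa fell by 1.77 ± 0.13 in CDP, against −0.24 ± 0.06 in MPP. The mitophagy receptor gene Bnip3 fell by 1.72 ± 0.28 and Ankrd37 by 1.43 ± 0.21 in CDP, and the fifth was Ero1a, named after its value was seen.

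The means of a list of Langerhans cell genes and a list of monocyte and macrophage markers changed over the course, each in 1 direction. Ahr instead dipped and came back. Cx3cr1 is on both lists. Of 12 measured Langerhans cell genes, 8 rose in CDP and 5 in MPP at 24 h, where 1.35% and 0.717% of all genes rose. Their mean level was 11.53 to 11.60 over the CDP arrays at 24 h, against 9.25 to 9.46 at 0 h, and 9.87 to 10.11 over the MPP arrays at 24 h, against 8.82 to 8.94 at 0 h. Unlike Ahr, this mean was already above the untreated arrays at 2 h, at 9.86 to 10.00 in CDP and 9.17 to 9.25 in MPP. Of 10 measured monocyte and macrophage markers, 7 fell in CDP and 3 in MPP at 24 h, where 1.79% and 0.487% of all genes fell. Their mean level was 8.50 to 9.08 in CDP at 24 h, against 10.38 to 10.79 at 0 h, and 9.78 to 10.12 in MPP at 24 h, against 10.45 to 10.80 at 0 h. The part of these lists in the level of Ahr was not tested.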

How the data were processed

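RNA of 36 mouse MPP and CDP samples was hybridised to Affymetrix Mouse Gene 1.0 ST arrays. The authors deposited a table of log2 intensities per probe set, made with RMA in Affymetrix Power Tools, per the submitters' processing notes, with no version or genome build given in the sources used here. RMA sets all arrays to 1 distribution, so a change is relative to the other genes. The study's own analysis used other summary and time course methods, which were not used here. One protocol text gives 6 h where sample titles give 8 h, and the labels and the study name different RNA kits.

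Of 35556 probe sets, 21789 carry 1 gene symbol, 1621 several and 12146 none. The first kind gave 19938 genes, 999 of them with several probe sets, of which the one with the highest mean was taken. Tests were run in limma 3.58.1 (R 4.3.3, lmFit and eBayes, two-sided), with Benjamini-Hochberg adjustment over all genes of a contrast and a call at adjusted p under 0.01 and an absolute log2 difference of 1 or more. Times and steps were fitted per cell type on 18 arrays with the replicate number as a block, CDP against MPP on 36 arrays with no block, and the difference of changes on 36 arrays with a block per replicate number of each cell type. Residuals of same-numbered arrays correlated at 0.19 or more in MPP and 0.21 or more in CDP, with 15 of 15 above 0.1 in each, so the block was kept. Between cell types 11 of 18 did. The fits were tested on simulated data with planted changes but no replicate effect, so that test could not check the block. The number of arrays limits the precision, and p-values measure only the spread between these arrays. The members and gene lists were chosen with earlier results of these data known. Named genes are the 6 members, up to 4 genes per list with the largest change among those called at any time or in the difference of changes, and the 3 genes most alike in group means for each member whose group means span 1 or more. Alternatives were other blocks, fits, normalizations, filters, probe set rules and variance models, and each array or replicate number left out.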

Additional observations from a re-analysis of the deposited data

Results flagged for a closer look

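The following genes are listed because their change since 0 h differed between CDP and MPP by the test of the difference itself (limma interaction contrast, CDP change minus MPP change, log2, called at the same thresholds). Ahr differed by 1.13 ± 0.24 at 24 h, where it rose in CDP and had −0.11 ± 0.18 in MPP. Relb, of the chaperones and coactivators, differed by 1.36 ± 0.33 and Cyp2s1, of the xenobiotic enzyme battery, by 1.02 ± 0.13 at 24 h. Among described targets, Itgae differed by 1.28, 1.74 and 1.41 at 8, 12 and 24 h, Kit by 2.93 at 24 h, Scin by 1.04 at 24 h, and Notch1 by −1.31 at 12 h and −1.91 at 24 h. Slc7a8 differed by −1.56 at 24 h. Of the hypoxia targets, Ndrg1 differed by −1.27 at 24 h and Vegfa by −1.16 and −1.53 at 12 and 24 h. At 24 h 1.85% of all genes were called in this contrast.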

How the results depend on the processing

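No difference of a member that was called changed sign under an alternative. Apart from fits with an array or a replicate number left out, 228 of 231 values of Ahr kept their side of the thresholds. With those fits included, 1011 of 1038 did. These counts do not require the same direction, and some small values that were not called changed sign. Without untreated MPP replicate 2, the difference of changes at 8 h was −0.13, against 0.15 with all arrays. Under median centring Ahr was −0.99 in MPP at 8 h and 0.995 in CDP at 24 h, both just under the fold threshold. Without the arrays high in interferon-stimulated genes, an alternative chosen after seeing the data, Ahr in MPP at 12 h was −1.16 and was called. With arrays or replicate numbers left out in turn, Ahr in MPP ranged between −1.45 and −0.83 at 2 h, −1.40 and −0.76 at 4 h, −1.35 and −0.74 at 8 h, and −1.16 and −0.52 at 12 h. Ahr in CDP at 24 h ranged between 0.94 and 1.10, CDP minus MPP between 0.88 and 1.52 at 0 h and between 0.58 and 1.00 at 4 h, and the difference of changes at 24 h between 0.85 and 1.46. The number of calls of members ranged between 0 and 4 in the MPP time course and between 0 and 1 in the difference of changes. The MPP calls and that of the difference of changes were lost without replicate 1, without replicate 2 and without untreated MPP replicate 2, and MPP calls in part without untreated MPP replicate 1, MPP 4 h replicate 2 or MPP 8 h replicate 1. The direction of Ahr in MPP at 24 h was not stable (−0.45 to 0.18), and it was not called.

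No replicate block left the Ahr calls as they were, with the difference of changes at 24 h still 1.13 (adjusted p = 0.0082), and with a shared replicate block Ahrr in CDP minus MPP at 24 h (1.35) had an adjusted p of 0.0049 and was called. The filter on dim genes (highest group mean of 7 or more) removed Cyp1a1 and Cyp1b1 and also called this Ahrr difference (adjusted p = 0.0098), as did leaving out CDP 8 h replicate 3 (adjusted p = 0.0093). Of the values of the 5 other members, 5125 of 5132 kept their side. Over all genes, testing all probe sets gave 125 calls in CDP at 2 h and 211 at 4 h, against 65 and 140. For the difference of changes, no replicate block gave 17 calls at 4 h and 53 at 8 h, against 28 and 82. With arrays or replicate numbers left out, counts that differed by over 1.5 times were 49 against 86 for the CDP step between 12 and 24 h, 0 to 10 against 6 for the difference of changes at 2 h, 14 against 28 at 4 h, and 42 and 53 against 82 at 8 h. Counts of the other steps were small and moved too, over all alternatives: 0 to 2 against 1, 1 to 6 against 3 and 5 to 18 against 14 in MPP (2 to 4, 4 to 8 and 12 to 24 h), and 0 to 12 against 11, 0 to 24 against 20 and 0 to 5 against 3 in CDP (2 to 4, 4 to 8 and 8 to 12 h).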
